A study of Homo sapiens with 6 samples.

Results

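Nuclear genes that encode the oxidative phosphorylation machinery were followed in 92.1 cells, an established human uveal melanoma line. The members were the rows whose symbol begins with NDUF, SDHA, SDHB, SDHC, SDHD, UQCR, COX4 to COX8 or ATP5, without pseudogene names. The rule found 51 of the 12306 rows, and 1 pseudogene row was left out. RefSeq lists 100 human protein-coding genes under the same prefixes, so many have no row here and no complex is covered in full. Of the 51, 41 encode subunits: 15 of complex I, 3 of complex II, 4 of complex III, 9 of complex IV and 10 of ATP synthase. The prefixes also took in 9 assembly factors and related genes, so the members are not subunits alone. NDUFS6B was the 1 row whose name matched no human gene.

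Cells received 1 µM VS-4718, a compound that inhibits focal adhesion kinase, or the DMSO vehicle, for 2 h in either case. Each group held 3 RNA-seq libraries, VS-4718 and vehicle alike from 92.1 cells cultured in RPMI-1640 with serum to 70% confluency. The series' design calls the samples independent without naming separate cultures, and the p-values cover only library-to-library spread, which may be technical. Values are log2 of a TPM-like abundance, which is scaled for transcript length and library total. A difference of 1 is a doubling, and the read depth of a library is unknown.

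Complexes I to IV pass electrons from NADH and succinate through ubiquinone and cytochrome c to oxygen, and ATP synthase uses the resulting proton gradient. Most subunits are nuclear genes, and a small catalytic core is encoded by mitochondrial DNA. Nuclear respiratory factors NRF1 and GABPA (also called NRF2), the factor YY1 and coactivators of the PGC-1 family are known to act on many of the nuclear genes.

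The lineage of the line was checked first. All 9 melanocyte markers had a row, and 6 of them were high enough to test, that is, above the lowest 25% of rows by mean. Their summed level ran from 7096 to 7774 TPM-like units with VS-4718 and from 7307 to 7892 with vehicle, led by PMEL, a melanosome matrix protein. Fibroblast, immune and epithelial markers had 4, 2 and 1 rows, all too low to test. The 2 endothelial rows summed to 3.86 to 8.60 with VS-4718 and 5.11 to 7.56 with vehicle, and the 4 muscle rows to 34.3 to 36.9 with VS-4718 and 27.0 to 40.6 with vehicle. Rows carry mouse-style symbols for a human line, and the transcripts behind each are unknown, so a level describes a row of this table. Of the member names, 38 matched a current human symbol and 12 an older one.

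No tested member passed the test, a share near that of all rows, and 9 of the 51 were too low to test. With the limma test and Benjamini-Hochberg adjustment over 9229 rows, 0 of the 42 members high enough to test passed a threshold of 0.05, where 0.130% of all tested rows did (0.0433% higher and 0.0867% lower with VS-4718). With so few rows called, a count of 0 does not set the members apart from other genes. At an unadjusted p under 0.05 there was 1 member, COX5A, against 9.76% of all rows. The groups did not overlap in 3 of the 42 members, COX5A, COX8A and UQCRC2, against 16.4% of all rows. The median log2 difference of the members was 0.02, VS-4718 minus vehicle, and that of all tested rows was -0.03. Means were lower with VS-4718 in 16 of the 42 members (38.1%), against 58.2% of all rows. The count of lower members depended on vehicle replicate 1: without it, 23 of 42 members were lower and their median was -0.004. Without that library 5351 of all tested rows were lower, with a median of -0.032. With libraries scaled to a common median, 11 members were lower and their median was 0.054. All tested rows then had 4553 lower and a median of 0.002.

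**Figure D1:**
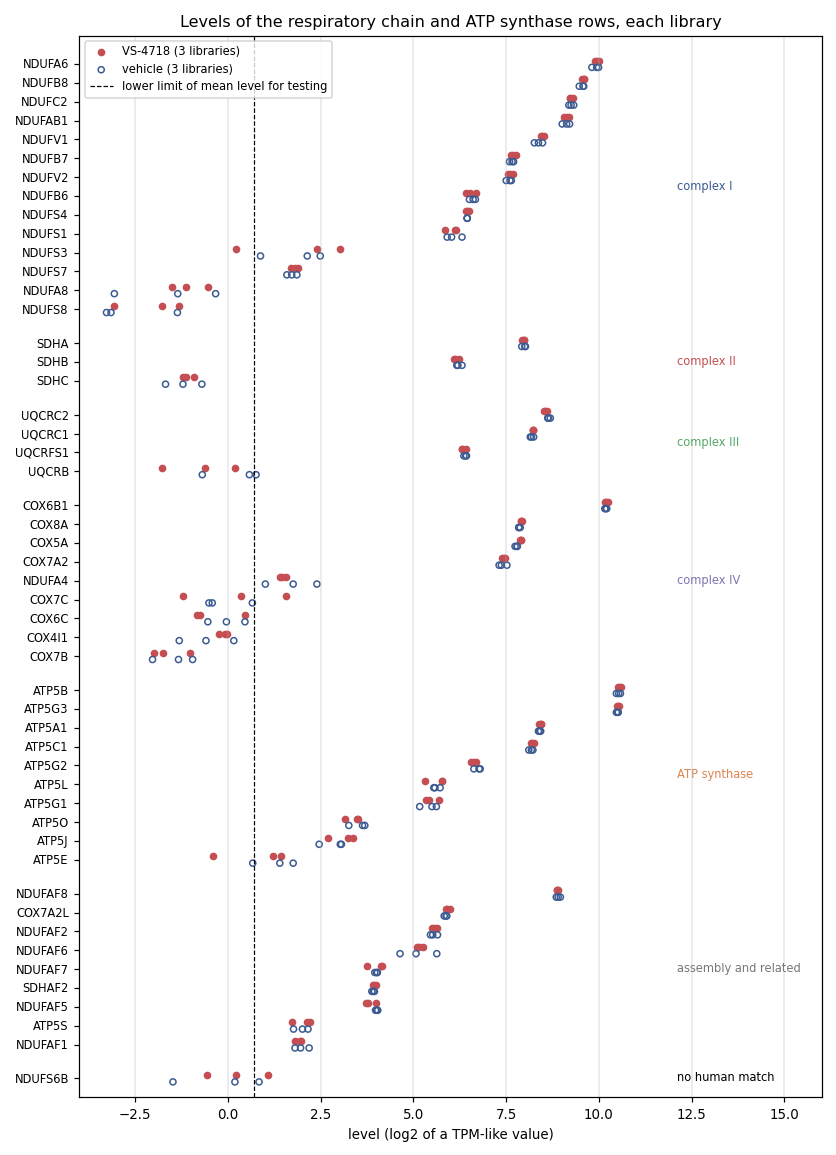
Level of 50 of the 51 rows in each library, in log2 of a TPM-like value, with VS-4718 (filled) drawn above vehicle (open) and rows grouped by complex. High rows such as ATP5B and COX6B1 have 6 nearly superimposed points, and rows left of the dashed line at 0.70 scatter widely.

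The precision behind this result depended on the level. For the 31 members with a mean level of at least 5, every log2 difference lay between -0.11 and 0.11, with standard errors from 0.03 to 0.23. In 30 of these 31 the 95% confidence interval, taken gene by gene, lay within 0.5 log2 units (1.41-fold) of 0. The exception was NDUFAF6, a complex I assembly factor, whose interval ran from -0.49 to 0.60. The 11 tested members with a lower level had differences from -0.53 to 0.26 and standard errors up to 0.76. For 6 of those 11 the interval lay within 0.5 log2 units of 0.

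**Figure D2:**
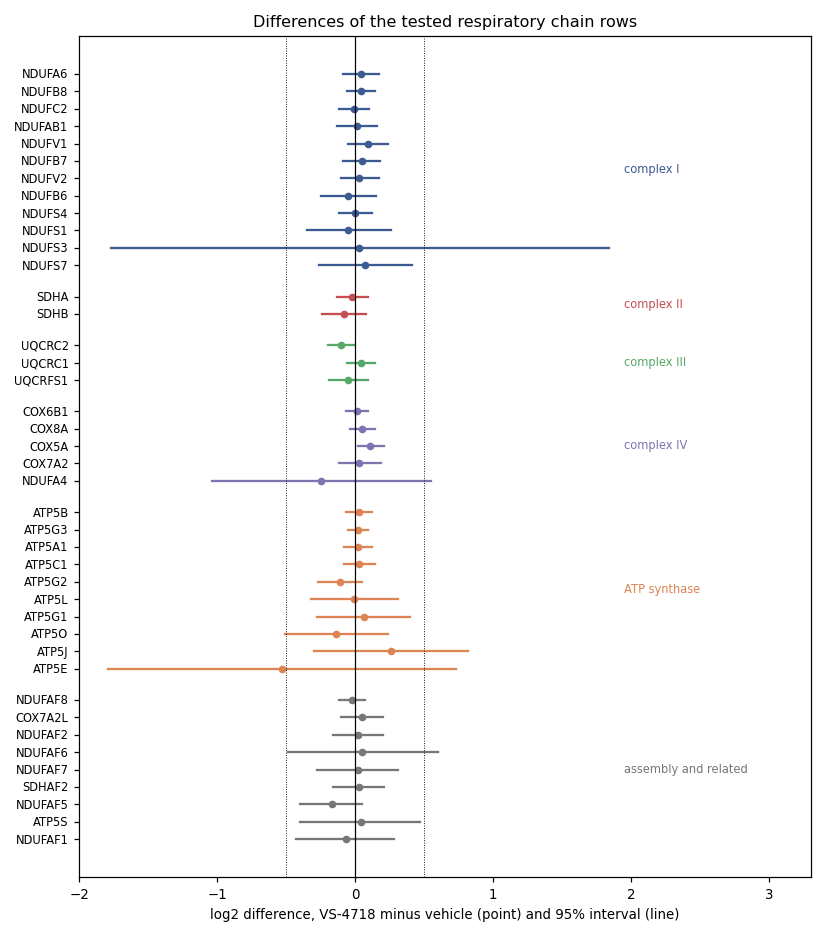
Log2 difference, VS-4718 minus vehicle, for 41 of the 42 tested rows (points) with 95% confidence intervals from limma (lines), grouped by complex and ordered by level within it. Dotted lines mark 0.5 log2 units on either side of 0, and the widest intervals belong to NDUFS3 and ATP5E.

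**Figure D3:**
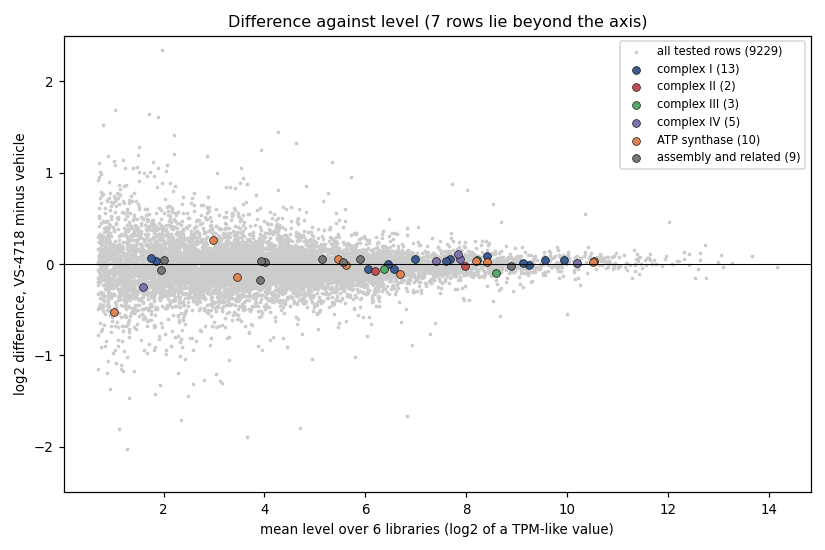
Log2 difference, VS-4718 minus vehicle, against mean level for all 9229 tested rows (grey) and the tested members (coloured by complex). Above a level of 5 the members lie between -0.11 and 0.11; 7 grey rows lie beyond the vertical axis.

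Complex I, the NADH dehydrogenase, had 13 of its 15 rows tested: 9 had higher and 4 lower means with VS-4718, and the median difference was 0.03. Without vehicle replicate 1, 6 of the 13 were lower and the median was 0.007, and with median scaling 2 were lower and it was 0.068. NDUFV1, the flavin subunit that accepts electrons from NADH, stood at 8.43, 8.51 and 8.47 with VS-4718 and at 8.26, 8.37 and 8.48 with vehicle. The groups overlapped through vehicle replicate 3. The log2 difference was 0.09 (SE 0.06, limma adjusted p = 0.66). NDUFS1, the largest iron-sulfur subunit, stood at 6.11, 6.16 and 5.84 with VS-4718 and at 6.31, 6.03 and 5.91 with vehicle, with overlapping groups. Its difference was -0.05 (SE 0.13, limma adjusted p = 0.92). Accessory subunits held the highest levels. NDUFA6, an accessory subunit of the matrix arm, averaged 9.95 ± 0.06 log2 units with VS-4718 and 9.91 ± 0.09 with vehicle (SD, n = 3 each). NDUFB8 and NDUFB7 of the membrane arm had differences of 0.04 (SE 0.04) and 0.05 (SE 0.06). NDUFB6, NDUFC2, NDUFS4, NDUFV2 and NDUFAB1 had differences between -0.05 and 0.03.

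Core subunits of complex I included low rows, although the assembled complex holds its core subunits in equal number. NDUFS7 averaged 1.80 ± 0.10 with VS-4718 and 1.72 ± 0.13 with vehicle (SD, n = 3 each). Its partner NDUFS8 was too low to test, at -1.77, -3.08 and -1.32 with VS-4718 and -1.36, -3.15 and -3.27 with vehicle. NDUFS3 stood at 0.21, 3.02 and 2.39 with VS-4718 and at 2.49, 2.14 and 0.88 with vehicle. VS-4718 replicate 1 was the lowest of the 6 and VS-4718 replicate 2 the highest, so the interval of its difference ran from -1.77 to 1.84. NDUFA8 of the intermembrane space side was also too low to test, as was NDUFS6B.

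Complex II, succinate dehydrogenase, joins the citric acid cycle to the chain. SDHA, its flavoprotein, stood at 7.97, 7.99 and 7.93 with VS-4718 and at 8.00, 7.92 and 8.02 with vehicle. SDHB, its iron-sulfur subunit, stood at 6.09, 6.23 and 6.13 with VS-4718 and at 6.17, 6.20 and 6.31 with vehicle. In either row the groups overlapped, with a difference of -0.02 (SE 0.05) for SDHA and -0.08 (SE 0.07) for SDHB. SDHC, a membrane anchor of the same complex, averaged -1.08 ± 0.15 with VS-4718 and -1.20 ± 0.49 with vehicle (SD, n = 3 each) and was not tested. SDHD had no row among those used here.

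Complex III, the cytochrome bc1 complex, had 3 of 4 rows tested, of which 2 had lower means and 1 a higher mean with VS-4718. UQCRC2, a core protein encoded on chromosome 16 from 21952660 to 21983660 (GRCh38, GENCODE 29), stood at 8.54, 8.51 and 8.60 with VS-4718 and at 8.62, 8.69 and 8.64 with vehicle. All 3 VS-4718 values lay below all 3 vehicle values, by a narrow margin. The log2 difference of -0.10 (SE 0.04, 95% interval -0.20 to 0.00) did not pass (limma adjusted p = 0.52). Its partner UQCRC1 stood at 8.23 in each VS-4718 library and at 8.18, 8.15 and 8.24 with vehicle, a difference of 0.04 (SE 0.04). UQCRFS1, the Rieske iron-sulfur protein, had a difference of -0.05 (SE 0.06). UQCRB, a small accessory subunit, was too low to test, at 0.19, -0.62 and -1.78 with VS-4718 and 0.76, -0.69 and 0.58 with vehicle.

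Complex IV, cytochrome c oxidase, held the member with the smallest p. COX5A, a subunit on the matrix side encoded on chromosome 15 from 74919791 to 74938168, stood at 7.89, 7.89 and 7.88 with VS-4718 and at 7.80, 7.74 and 7.79 with vehicle. The groups did not overlap, and the spread within either group was smaller than the gap between them. The log2 difference of 0.11 (SE 0.04, 95% interval 0.02 to 0.21, 7.97% higher) did not pass over all rows (limma adjusted p = 0.46). COX8A, a small membrane subunit encoded on chromosome 11 from 63974607 to 63976543, stood at 7.93, 7.90 and 7.89 with VS-4718 and at 7.84, 7.88 and 7.84 with vehicle. Its groups did not overlap either, with a difference of 0.05 (SE 0.04, limma adjusted p = 0.71). COX6B1, which faces the intermembrane space, averaged 10.20 ± 0.04 with VS-4718 and 10.18 ± 0.02 with vehicle (SD, n = 3 each). COX7A2, the isoform found in most tissues, had a difference of 0.03 (SE 0.07).

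The remaining 5 rows of complex IV were low. COX4I1, the ubiquitous isoform of subunit 4, stood at -0.09, -0.24 and -0.03 with VS-4718 and at 0.16, -0.59 and -1.31 with vehicle and was not tested. COX6C, COX7B and COX7C were also below the limit for testing, with mean levels between -1.60 and 0.23 in either group. NDUFA4, first assigned to complex I and now counted with complex IV, stood at 1.41, 1.58 and 1.45 with VS-4718 and at 1.76, 2.40 and 1.01 with vehicle. The vehicle values lay on both sides of the VS-4718 values, and the interval ran from -1.04 to 0.55. Of the muscle and other tissue isoforms, COX4I2, COX6A2, COX6B2, COX7A1 and NDUFA4L2 had no row among those used here. COX6A1, the partner of COX6A2, and COX5B had no row either, so a missing row was not read as a silent gene.

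ATP synthase had all 10 of its rows tested, 6 with higher and 4 with lower means in VS-4718 libraries, and a median difference of 0.02. Without vehicle replicate 1 the balance turned, with 6 of 10 lower and a median of -0.015. ATP5B, the catalytic beta subunit of the F1 head, was the highest member, at 10.59, 10.52 and 10.54 with VS-4718 and at 10.58, 10.47 and 10.53 with vehicle. The ranges overlapped, and the difference was 0.03 (95% interval -0.07 to 0.12). ATP5A1, the alpha subunit of the same head, stood at 8.43, 8.45 and 8.38 with VS-4718 and at 8.37, 8.43 and 8.40 with vehicle. ATP5C1, the gamma subunit of the rotating stalk, had a difference of 0.03 (SE 0.05). ATP5E, the epsilon subunit of that stalk, was the lowest tested member, at -0.41, 1.44 and 1.21 with VS-4718 and 1.76, 1.40 and 0.67 with vehicle. Its difference of -0.53 (SE 0.53) came with VS-4718 replicate 1 as the lowest library, and was 0.047 without it. ATP5J of the peripheral stalk had a difference of 0.26 (SE 0.23), which ran from 0.066 to 0.464 with a library left out. ATP5O of the same stalk had one of -0.14 (SE 0.16), which ran from -0.273 to -0.024. ATP5L of the membrane part had one of -0.01 (SE 0.13).

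The c subunit forms the rotor ring, and 3 genes encode it. In GENCODE 29 transcripts their peptides were the same over the last 77 residues, while the coding bases differed, so the rows can be told apart only by sequence that does not change the protein or lies outside this end. The first 120 bases of that shared end are shown to set the genes against each other (GRCh38, coding strand, spliced). Capitals mark the 28 positions at which the genes are not all alike.
ATP5G1: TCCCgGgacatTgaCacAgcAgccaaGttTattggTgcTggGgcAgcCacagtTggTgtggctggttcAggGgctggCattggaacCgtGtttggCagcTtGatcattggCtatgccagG
ATP5G2: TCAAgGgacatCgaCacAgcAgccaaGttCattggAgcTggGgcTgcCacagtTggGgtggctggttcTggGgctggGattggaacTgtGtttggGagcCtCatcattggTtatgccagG
ATP5G3: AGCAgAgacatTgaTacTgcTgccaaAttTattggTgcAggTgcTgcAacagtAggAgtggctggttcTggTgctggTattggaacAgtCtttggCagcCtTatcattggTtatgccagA
ATP5G1 lies on chromosome 17 from 48892765 to 48895871, ATP5G2 on chromosome 12 from 53632726 to 53677408 and ATP5G3 on chromosome 2 from 175176258 to 175184607; all are protein coding. Over the 231 bases of the shared end, ATP5G1 and ATP5G2 differed at 27, and ATP5G3 differed from either at 46. The longest run shared by a pair over the whole coding sequence was 17 bases. The GENCODE names of human pseudogenes include 7 for ATP5G1, 3 for ATP5G2 and 0 for ATP5G3, so the first 2 rows may share reads with copies.

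ATP5G3 supplied most of the c subunit transcripts in both groups. It made up 90.8%, 91.1% and 91.3% of the summed abundance of the 3 rows with VS-4718 and 90.8%, 90.5% and 90.5% with vehicle. ATP5G2 made up 6.52%, 5.76% and 6.15% with VS-4718 and 6.95%, 6.34% and 6.74% with vehicle, and ATP5G1 the rest. The ranges of the 2 groups overlapped for ATP5G2, whose own log2 difference was -0.11 (SE 0.07, limma adjusted p = 0.65). ATP5G3 had a difference of 0.02 (SE 0.03) and ATP5G1 one of 0.06 (SE 0.14). The summed abundance of the c subunit rows was 1593, 1623 and 1602 TPM-like units with VS-4718 and 1604, 1563 and 1621 with vehicle.

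The assembly factors and related genes had 6 higher and 3 lower means among 9 tested rows, and 0 were called. Without vehicle replicate 1, 5 of the 9 were lower and the median was -0.022. NDUFAF5, an assembly factor of complex I, had the smallest p among them. It stood at 3.73, 3.79 and 3.99 with VS-4718 and at 4.04, 4.01 and 3.98 with vehicle, with overlap through a single pair of values. The difference was -0.17 (SE 0.10, limma adjusted p = 0.61). NDUFAF8, a second such factor, was the highest of the group, at 8.88 ± 0.01 with VS-4718 and 8.90 ± 0.05 with vehicle (SD, n = 3 each). COX7A2L, which takes part in joining complexes III and IV into supercomplexes, had a difference of 0.05 (SE 0.06). NDUFAF1 had one of -0.07 (SE 0.15). SDHAF2, which helps to attach flavin to SDHA, had a difference of 0.03 (SE 0.08).

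Summed over rows, the members present took a similar share of the table in every library. The 51 members held 1.37%, 1.36% and 1.37% of the summed linear values with VS-4718 and 1.34%, 1.35% and 1.37% with vehicle. Complex I rows summed to 4071 ± 61.1 TPM-like units with VS-4718 and 3990 ± 123 with vehicle, and ATP synthase rows to 3813 ± 33.1 with VS-4718 and 3768 ± 69.1 with vehicle (SD, n = 3 each). The sums of complex IV were 1829 ± 37.5 with VS-4718 and 1789 ± 23.7 with vehicle, those of complex III 757 ± 11.0 with VS-4718 and 780 ± 7.44 with vehicle. As shares of the table, complex III rows held 0.0904%, 0.0886% and 0.0917% with VS-4718 and 0.0922%, 0.0936% and 0.0937% with vehicle. These shares did not overlap between the groups, while those of every other complex did. Complex II rows summed to 321 ± 7.94 with VS-4718 and 328 ± 11.7 with vehicle. Values are scaled to the library total, so such a sum is a share of the table and not an amount of RNA per cell. These sums are descriptions with no test, and rows with a log2 level near or below 0 add little to them.

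Members of one complex could differ widely in level. Levels ran from -2.33 for NDUFS8 to 9.93 for NDUFA6 in complex I, and from -1.52 for COX7B to 10.19 for COX6B1 in complex IV. In all, 9 members fell below the limit for testing, a mean of 0.70 that removed the lowest 25% of rows. COX7C lay next below it and ATP5E next above it. Human pseudogene names existed for 25 members, 7 of them below the limit, and for none of the other 26, of which 2 were below. Median levels of these parts of the list were 6.37 and 5.98, and COX6C had the most such names, 17. Reads shared with such copies make these levels uncertain, and their part in the results was not tested.

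The promoters were searched for letters that the named regulators are known to bind, in RefSeq windows of 300 bases (GRCh38.p14), 250 before and 50 after each transcription start, on either strand. Of the members, 41 had such a window. The NRF1 letters GCGCANGCG occurred in 11 of 41 (26.8%), against 9.02% of all genes with a window and 18.8% of those tested here. The GABPA core CCGGAAG occurred in 12 of 41 (29.3%), against 12.2% and 24.3%. The YY1 letters AAGATGGCG occurred in 8 of 41 (19.5%), against 2.14% and 5.85%. The 41 include members too low to test. Among tested members the NRF1 letters occurred in 10 and not in 26. For the GABPA core these counts were 11 and 25, and for the YY1 letters 8 and 28. The NRF1 and YY1 letters were shortened by 1 base after a first search: with that base the shares were 17.1% of members, 6.98% of all genes and 14.9% of tested genes for NRF1, and 19.5%, 1.46% and 4.17% for YY1. Together 25 members held at least 1 of these, and ATP5J, NDUFAF8, NDUFS7, SDHB and UQCRC1 held more than 1. The NRF1 letters can match on either strand at one place, 1 base apart, and a match is only a description of the sequence.

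Windows of 30 bases show the YY1 match near the start of members of different complexes. Capitals mark the matched letters, and all run with the gene.
NDUFS4, chr5:53560650-53560679, plus strand: tgcctgcagcAAGATGGCGgcggtgtcaat
NDUFB8, chr10:100529835-100529864, minus strand: gaagaaggtgAAGATGGCGgtggccagggc
SDHB, chr1:17054003-17054032, minus strand: gtcaggagccAAGATGGCGgcggtggtcgc
UQCRC1, chr3:48609604-48609633, minus strand: ctgcagctggAAGATGGCGgcgtccgtggt
In 7 of the 8 members the match lay after the transcription start, at a distance of up to 25 bases, and in ATP5J before it. The YY1 letters include ATG, so a match after the transcription start may overlap a start codon. How far this accounts for the share of members with the letters was not tested. SDHA held the NRF1 letters 4 times, each 49 bases after the last. Its first and last copies are shown with a match in ATP5C1.
SDHA first copy, chr5:218144-218173, plus strand: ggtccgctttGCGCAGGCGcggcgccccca
SDHA last copy, chr5:218291-218320, plus strand: ccggtgtggtGCGCAGGCGcagtctgcgca
ATP5C1, chr10:7788145-7788174, plus strand: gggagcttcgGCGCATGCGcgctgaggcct
The median log2 difference of tested members was -0.00 with the NRF1 letters and 0.02 without them. It was 0.02 with and 0.02 without the GABPA core, and 0.04 with and 0.01 without the YY1 letters.

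The regulators themselves were read from a list of 20 genes, of which 15 were tested. None was called, 11 had lower and 4 higher means with VS-4718, and the median was -0.13. Lower means made up 73.3% of this list, against 58.2% of all rows, whose median was -0.03. With median scaling 10 were lower and the median was -0.1. All tested rows then had 4553 of 9229 lower and a median of 0.002. Groups did not overlap in 5 of the 15 regulators, against 16.4% of all rows. PPRC1, a PGC-1 family coactivator, stood at 4.90, 5.11 and 5.33 with VS-4718 and at 5.80, 5.69 and 5.49 with vehicle. All VS-4718 values lay below all vehicle values, a log2 difference of -0.55 (SE 0.13, 95% interval -0.86 to -0.23) that did not pass (limma adjusted p = 0.30). PPARGC1A, which encodes PGC-1 alpha, stood at 2.11, 1.88 and 1.86 with VS-4718 and at 2.30, 2.27 and 2.16 with vehicle, also without overlap (difference -0.29, SE 0.13, limma adjusted p = 0.53). NRF1 had a difference of -0.19 (SE 0.13) and YY1 one of -0.08 (SE 0.09), each with overlapping groups. GABPA had a difference of -0.01 (SE 0.11). ESRRA, an estrogen-related receptor that works with PGC-1 coactivators, was higher in all VS-4718 libraries than in any vehicle library (difference 0.10, SE 0.06, limma adjusted p = 0.61).

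Companion lists of the same organelle also had 0 genes called. The mitochondrial ribosome had 25 of 33 tested genes lower, with a median of -0.07. Of the 33, 5 had an unadjusted limma p under 0.05, against 9.76% of all rows. Lower means made up 75.8% of this list, against 58.2% of all rows. With median scaling 22 were lower and the median was -0.036. All tested rows then had 4553 of 9229 lower and a median of 0.002. Groups did not overlap in 10 of the 33 ribosome genes, against 16.4% of all rows. MRPL27 of the large subunit stood at 6.99, 6.89 and 6.95 with VS-4718 and at 7.22, 7.19 and 7.14 with vehicle, without overlap. The difference of MRPL27 was -0.24 (SE 0.05, limma adjusted p = 0.25), and that of MRPS27 was -0.26 (SE 0.08). Import genes had 9 of 12 lower (median -0.03), but 6 of 12 with median scaling (median 0.003). Among them were TOMM40, the outer membrane channel, with -0.18 (SE 0.07), and TIMM17A with -0.10 (SE 0.05). Citric acid cycle genes had 7 of 13 lower, with a median of -0.02. OGDH, a subunit of the oxoglutarate dehydrogenase complex, stood at 5.01, 4.67 and 5.09 with VS-4718 and at 4.16, 4.57 and 4.55 with vehicle, a difference of 0.50 (SE 0.16, limma adjusted p = 0.39). MDH2, malate dehydrogenase, had a difference of 0.07 (SE 0.04).

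Assembly factors outside the prefixes had 9 of 14 lower, with a median of -0.05. ACAD9, a complex I assembly factor, stood at 3.98, 3.96 and 4.31 with VS-4718 and at 4.68, 4.45 and 4.50 with vehicle. The groups did not overlap, and the difference of -0.46 (SE 0.12) had an adjusted limma p of 0.35. COX11, a copper chaperone of complex IV, had one of -0.22 (SE 0.10). Cytochrome c1, electron carriers and enzymes of ubiquinone synthesis had 6 of 11 lower, with a median of -0.01. In that list PDSS1 and COQ2, of ubiquinone synthesis, had differences of -0.24 (SE 0.11) and -0.27 (SE 0.13). The difference between the members and any of these lists was not tested.

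**Figure D4:**
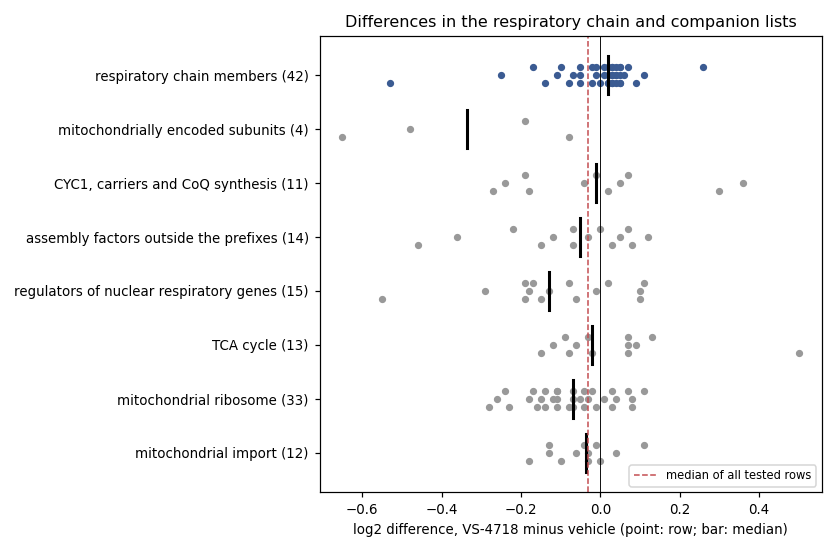
Log2 difference, VS-4718 minus vehicle, of each tested row in the respiratory chain members and in 7 companion lists, with the median of each list as a bar. The dashed line is the median of all tested rows at -0.03; the members have a median of 0.02 and the mitochondrial ribosome one of -0.07.

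The mitochondrially encoded subunits had 10 rows, of which 4 were tested and 0 called. MT-ND6, a complex I subunit, stood at 9.25, 9.00 and 9.33 with VS-4718 and at 9.20, 9.66 and 9.31 with vehicle. The other 9 rows were far lower; MT-ND1, also of complex I, stood at 0.56, 1.02 and -0.31 with VS-4718 and at 2.46, 0.32 and 0.44 with vehicle. Vehicle replicate 1 was the highest library in 8 of the 10 rows, the exceptions being MT-ND6 and MT-ATP6. Among nuclear members it was the highest in 3 of 31 with a level of at least 5 and in 6 of 20 below that. All 4 tested rows had lower means with VS-4718 (median -0.34). The limit for testing was set anew without vehicle replicate 1, and MT-ND1 and MT-ND4 then fell below it. Of the rows still tested, MT-ND6 was lower and MT-CO1 higher, with a median of 0.056. Whether that library's excess of these rows bears on the nuclear members was not tested.

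**Figure D5:**
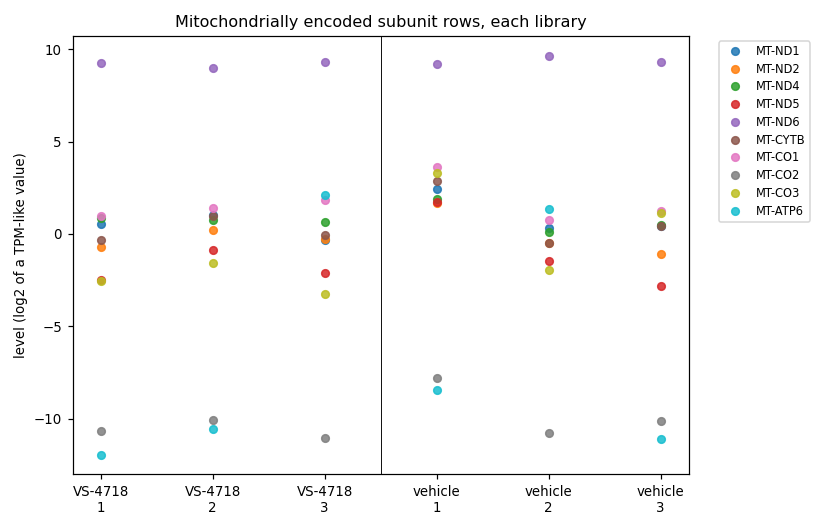
Level of each of the 10 mitochondrially encoded rows in each library, in log2 of a TPM-like value, with VS-4718 libraries on the left. MT-ND6 stays between 9.00 and 9.66, and most other rows are highest in vehicle replicate 1.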

How the data were processed

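Total RNA of 92.1 cells was sequenced commercially, per the labels' protocols. Per the submitters' processing notes, kallisto (no version) and GRCh38 were used; index, annotation and strandedness were not given. The authors deposited log2 values per gene symbol. The reading as TPM-like abundances rests on the values, whose linear sums lay between 836527 and 840714 in each library. Depth is unknown, so no counting interval can be given.

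Groups were taken from the treatment labels. Values were fitted as deposited with limma 3.58.1 (limma-trend, group as the only term, R 4.3.3), after removing the lowest 25% of rows by mean, with two-sided p-values adjusted over 9229 rows by Benjamini-Hochberg and a threshold of 0.05. Standard errors and 95% intervals are limma's moderated ones. With 3 libraries a side, the smallest exact permutation p is 0.1, and genes were judged by the limma model alone. The fit was tested on simulated data.

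The members and lists were chosen with earlier results of these data known. Named by rule were, per complex and among assembly factors, up to 4 members with the smallest p, the highest and lowest tested subunit, 16 core or isoform genes, the isoform pairs and up to 2 genes per companion list. Other members, and NRF1, YY1, GABPA and ESRRA, were named after their values were seen. A complex I row is counted but not reported here by name or in the plots by gene. Names were matched through RefSeq tables and places taken from GENCODE 29. Figures used matplotlib 3.10.9.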

Additional observations from a re-analysis of the deposited data

How the results depend on the processing

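No member was called in any alternative: a replicate block, each library left out, median scaling, no filter, a stricter filter, no trend or a pseudocount of 1. The count at an unadjusted p under 0.05 ran from 0 to 3. Over all rows, 12 were called, 0 with the replicate block (793 at an unadjusted limma p under 0.05), 0 without trend (910) and 0 to 7 with a library left out; the cause was not tested. Residuals of libraries with the same number correlated at 0.135, 0.0547 and 0.0316, and the numbers were not taken to pair the samples. With the block, 0 members had an unadjusted p under 0.05. The median of the members was 0.020, 0.054 with median scaling and -0.004 to 0.024 with a library left out. Complex I ran from 0.007 to 0.057 with a library left out. With median scaling the median was 0.065 for complex IV and 0.051 for ATP synthase, and with a library left out 0.001 to 0.090 and -0.015 to 0.027 for these. Signs turned with a library left out for ATP5B (-0.005 to 0.053), ATP5C1 (-0.003 to 0.051), ATP5E (-0.876 to 0.047), ATP5G1 (-0.073 to 0.154), ATP5L (-0.083 to 0.144), ATP5S (-0.068 to 0.184), COX6B1 (-0.010 to 0.027), COX7A2 (-0.011 to 0.090), NDUFA4 (-0.604 to 0.093), NDUFA6 (-0.012 to 0.077), NDUFAB1 (-0.039 to 0.060), NDUFAF1 (-0.162 to 0.030), NDUFAF2 (-0.022 to 0.076), NDUFAF6 (-0.183 to 0.313), NDUFAF7 (-0.057 to 0.142), NDUFAF8 (-0.049 to 0.005), NDUFB6 (-0.129 to 0.009), NDUFC2 (-0.040 to 0.028), NDUFS1 (-0.136 to 0.066), NDUFS3 (-0.538 to 0.865), NDUFS4 (-0.022 to 0.015), NDUFV2 (-0.007 to 0.062) and SDHA (-0.048 to 0.003). With median scaling they turned for ATP5L (0.027), NDUFAF8 (0.012), NDUFC2 (0.026), NDUFS4 (0.034) and SDHA (0.017). The other 453 values of the 42 tested members kept their sign, and none was called. COX5A ran from 0.094 to 0.122 and UQCRC2 from -0.127 to -0.079 with a library left out.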
